A study of Mus musculus with 3 samples.

Results

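The 8 genes described here, Il1b, Il1a, Il1rn, Tnf, Nlrp3, Il6, Il10 and Il18, belong to the interleukin-1, tumor necrosis factor and inflammasome system and were chosen by name from 32285 measured genes. All 8 had at least 1 unique molecular identifier (UMI, 1 captured RNA molecule) in each of the 3 libraries. They were followed across 18344 kept cells of the adult mouse lacrimal gland (LG), the gland that secretes the aqueous part of the tear film. The cells came from 1 female and 2 male droplet single-cell RNA-seq libraries of C57BL/6J mice aged 2 months, each made from 6 LGs of 3 animals that were pooled and digested with enzymes, with no treatment or genetic change in any group. The female library was prepared on another day and sequenced at another core facility than both male libraries, so sex, day and core cannot be told apart. Each library is a pool, so p-values here rest on 3 libraries and do not measure the spread between animals. The test also shares its estimate of variance between genes, so a p-value does not come from the spread of its own gene alone.

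Interleukin-1 beta (Il1b) and interleukin-1 alpha (Il1a) are ligands of the same receptor, and the receptor antagonist encoded by Il1rn occupies that receptor without activating it. The precursor of interleukin-1 beta, like that of interleukin-18, is cut by caspase-1 on inflammasomes, of which Nlrp3 is a sensor. Transcription of Il1b, Tnf, Nlrp3 and Il6 is known to be raised by NF-kB signaling, and interleukin-10 (Il10) restrains cytokine production by macrophages. In exocrine glands these cytokines are best known from inflammation, while the libraries here came from untreated adults. A transcript level says nothing of protein, of processing or of secretion.

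All 8 genes lie on autosomes. On the GRCm38 build, Il1b (ENSMUSG00000027398) covers chr2:129364570-129371139 and Il1a chr2:129299610-129309972, both on the minus strand, and Il1rn lies on the plus strand of the same chromosome at chr2:24336853-24351494. Tnf is at chr17:35199381-35202007 on the minus strand, Nlrp3 at chr11:59541568-59566956, Il6 at chr5:30013114-30019981, Il10 at chr1:131019845-131024974 and Il18 at chr9:50554827-50581840, the last 4 on the plus strand.

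The 250 bases upstream of the RefSeq start site (GRCm38.p6) are printed for the 3 ligand genes whose transcripts lay almost wholly in myeloid-like cells and for Il6, whose transcripts lay in stromal cells. Capitals mark the motifs searched on both strands: the TATA box TATAAA, the AP-1 motif TGANTCA and the NF-kB motif, which is GGG followed by any 2 bases and TTTCC. The regions are chr2:129371140-129371389 (minus strand) for Il1b, chr2:129309973-129310222 (minus strand) for Il1a, chr17:35202008-35202257 (minus strand) for Tnf and chr5:30012864-30013113 (plus strand) for Il6.
Il1b: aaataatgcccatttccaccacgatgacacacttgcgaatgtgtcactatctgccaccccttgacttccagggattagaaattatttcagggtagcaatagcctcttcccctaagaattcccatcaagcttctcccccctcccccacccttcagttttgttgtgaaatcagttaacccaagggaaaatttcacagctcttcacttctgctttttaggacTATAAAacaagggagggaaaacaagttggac
Il1a: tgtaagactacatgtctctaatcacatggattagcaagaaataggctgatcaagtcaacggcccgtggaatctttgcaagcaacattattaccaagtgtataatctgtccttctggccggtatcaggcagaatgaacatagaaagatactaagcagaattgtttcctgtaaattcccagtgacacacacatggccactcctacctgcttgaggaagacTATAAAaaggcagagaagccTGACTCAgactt
Tnf: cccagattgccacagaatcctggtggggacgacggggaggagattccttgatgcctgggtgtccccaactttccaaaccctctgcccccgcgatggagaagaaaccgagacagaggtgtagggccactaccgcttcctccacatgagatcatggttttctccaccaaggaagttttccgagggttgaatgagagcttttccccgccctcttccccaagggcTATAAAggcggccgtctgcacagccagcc
Il6: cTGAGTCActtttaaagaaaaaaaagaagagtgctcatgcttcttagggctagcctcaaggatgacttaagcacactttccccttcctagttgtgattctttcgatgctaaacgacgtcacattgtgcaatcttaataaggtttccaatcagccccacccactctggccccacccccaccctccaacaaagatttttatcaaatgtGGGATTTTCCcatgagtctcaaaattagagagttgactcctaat

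Counted from the start site, the TATA box letters stood at -31 to -26 in Il1b, -32 to -27 in Il1a and -29 to -24 in Tnf, and were not in the Il6 window. The NF-kB letters stood in the Il6 window at -44 to -35, and the AP-1 letters at -12 to -6 in Il1a and at -249 to -243 in Il6. Of 32851 promoter windows of the same length, 12.4% held the TATA letters, 6.75% the AP-1 letters and 1.41% the NF-kB letters. Among the other members, Il1rn has 3 listed promoters, with AP-1 letters in 1 of them at -141 to -135 and NF-kB letters in another at -51 to -42. Nlrp3 has 2 listed promoters with none of these letters, and Il18 has TATA letters on the opposite strand at -175 to -170. These matches describe the letters alone.

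After filters, 7652 female cells and 5295 and 5397 male cells remained, with 37754290 to 55375501 UMIs per library and medians of 3254, 1885 and 1789 UMIs per cell. Clustering without the 8 genes, with names given from markers that exclude them, left 3388 myeloid-like, 1526 lymphoid-like, 4806 stromal and 8238 epithelial-like cells, and 386 cells without a name. The largest myeloid class was named M1-like from Cd14, Ccl3, Ccl4 and Cxcl2. All 4 of these were higher there than in all other cells in each library, which the naming itself favors. The labelled tissue could be recognized from 4790 acinar-like, 1684 duct-like and 949 myoepithelial-like cells. In each library 4 of the 6 acinar markers were higher in the acinar-like cells. As these markers also gave the names, such counts describe the classes and are no separate support for the names. Pairs of libraries shared 8 to 13 kept cell barcodes. Free RNA was plentiful: secreted tear products made up 86.2% of the UMIs of barcodes with more than 500 UMIs that were not called as cells in the female library and 91.8% and 91.5% in the male libraries. Scaled by those products, free RNA was estimated at 35.7% of the UMIs of non-epithelial cells in the female library and 58.0% and 64.2% in the male libraries. The levels of the 8 genes in those uncalled barcodes are therefore given beside low values.

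Myeloid-like cells held nearly all transcripts of 6 of the 8 genes, though they were 20.3%, 18.1% and 16.2% of the cells of the 3 libraries. Of the UMIs of a gene within a library, they carried 98.0 ± 0.677% for Il1b, 98.5 ± 1.02% for Il1a, 97.6 ± 2.48% for Il1rn, 96.0 ± 0.880% for Tnf, 97.1 ± 0.699% for Nlrp3 and 92.0 ± 6.75% for Il10 (mean ± SD, n = 3 libraries). The exceptions were Il6, with 93.2 ± 1.53% of its UMIs in stromal cells, and Il18, which was divided between myeloid-like (49.8 ± 7.70%), stromal (25.6 ± 4.44%) and epithelial-like cells (24.6 ± 8.70%). The sizes of the signals were unequal as well. Kept cells held 10194 UMIs of Tnf, 9251 of Il1b, 1325 of Il1a and 1116 of Nlrp3, but only 480 of Il6, 342 of Il1rn, 208 of Il18 and 192 of Il10, so statements on the last 4 genes rest on few molecules.

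**Figure D1:**
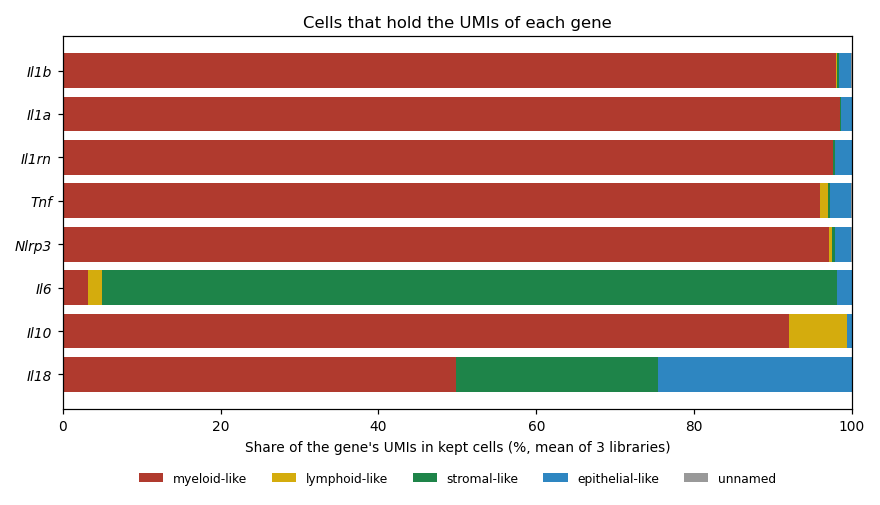
Stacked bars give the percent of each gene's UMIs found in myeloid-like, lymphoid-like, stromal, epithelial-like and unnamed cells, as the mean of 3 libraries. Il6 is the 1 gene with most of its UMIs in stromal cells (93.2%), and Il18 the 1 gene with less than 50% in its leading compartment (49.8%).

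UMIs were summed per library for each compartment and for all other kept cells, and the paired sums were compared with the edgeR quasi-likelihood test. All 8 genes differed in myeloid-like cells at an adjusted p under 0.05, 7 higher and Il6 lower, where 49.6% of 12687 tested genes were called in either direction (20.4% higher, 29.1% lower). In lymphoid-like cells 7 of the 8 were called, all lower (42.1% of 11963 genes in either direction, 13.5% higher and 28.6% lower). In stromal cells 6 of 7 tested were called, Il6 higher and 5 lower (43.7% of 13301 genes, 21.7% higher and 22% lower). In epithelial-like cells all 8 were called, all lower (51.8% of 13491 genes, 23.4% higher and 28.4% lower). The 4 comparisons share cells, since each compartment is part of the others' reference, so they are not independent of each other. When free RNA estimated from barcodes with 10 to 100 UMIs was subtracted first, no gene of the table was called in any of the 4 comparisons by edgeR (2860, 2187, 2685 and 3284 genes at an unadjusted p under 0.05, among them 7, 6, 6 and 8 of the 8). With the profile of uncalled barcodes over 500 UMIs, which was added once these results had been seen, the counts of called members were 8, 6, 6 and 8, where 46.7%, 36.3%, 39.1% and 45.3% of all genes were called.

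Il1b, the cytokine precursor cut by the inflammasome, reached 778 UMIs per 1000000 UMIs (CPM) in myeloid-like cells of the female library and 1523 and 1133 CPM in those of male libraries 1 and 2. All other cells together had 1.92, 1.03 and 1.23 CPM. The groups did not overlap, and the fitted difference was 8.49 on the log2 scale (SE 0.29, edgeR adjusted p 9.5e-13), a 360-fold higher level. Fitted differences, here and below, are on edgeR's TMM scale and are not ratios of the printed CPM. For Il1b the ratio of CPM from UMIs pooled over the libraries was 679. Within libraries, 59.2% of female and 53.0% and 51.3% of male myeloid-like cells held an Il1b UMI, and after thinning each cell to 1000 UMIs these shares were 37.6%, 48.1% and 46.3%. In epithelial-like cells the unthinned shares were 1.59%, 0.824% and 1.11%. Their median depths were 3754, 3497 and 5729 UMIs per cell, against 3574, 1758 and 1424 in myeloid-like cells. The female library thus had the largest unthinned share and the smallest thinned share of Il1b-positive myeloid-like cells.

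Among the named classes, Il1b was highest in the proliferating myeloid-like (2223 ± 786 CPM), dendritic cell-like (2026 ± 372 CPM) and M1-like cells (1821 ± 658 CPM, n = 3 libraries each), and neighbours in this order did not differ beyond their spread. Outside tear products and mitochondrial genes the order was dendritic cell-like (3808 ± 1362 CPM), M1-like (3635 ± 1773 CPM) and proliferating myeloid-like cells (3503 ± 1736 CPM). The proliferating class joined clusters of 75 and 58 cells, whose next best names by marker score were M1 and dendritic cell. The dendritic cell-like cells, specialized in presenting antigen, had 1775, 2454 and 1849 CPM. The M1-like cells had 1065, 2267 and 2132 CPM, so the female value lay below both male values. M1-like cells stood above monocyte-like cells (857 ± 260 CPM) by 1.05 ± 0.16 on the log2 scale, and macrophage-like cells (820 ± 243 CPM) above Trem2-high macrophage-like cells (390 ± 73.4 CPM) by 1.03 ± 0.21. At the low end of the myeloid classes were M2-like cells with 65.7, 233 and 158 CPM. Because M1-like cells were also the most numerous, they carried 46.6 ± 3.17% of all Il1b UMIs while being 4.72% to 7.84% of the cells of a library. Dendritic cell-like cells carried 15.7 ± 9.23%. The lymphoid-like, stromal and epithelial-like totals were 0.694 to 5.65 CPM, beside 2.48 to 3.12 CPM in uncalled barcodes. Outside tear products and mitochondrial genes they were 2.15 to 12.4 CPM, beside 18.4 to 37.6 CPM.

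Expression was uneven between cells. Of the 2019 cells with an Il1b UMI, 589 had exactly 1, the richest cell had 88, and 355 cells held 50% of the UMIs. For Tnf the highest count in 1 cell was 41.

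**Figure D2:**
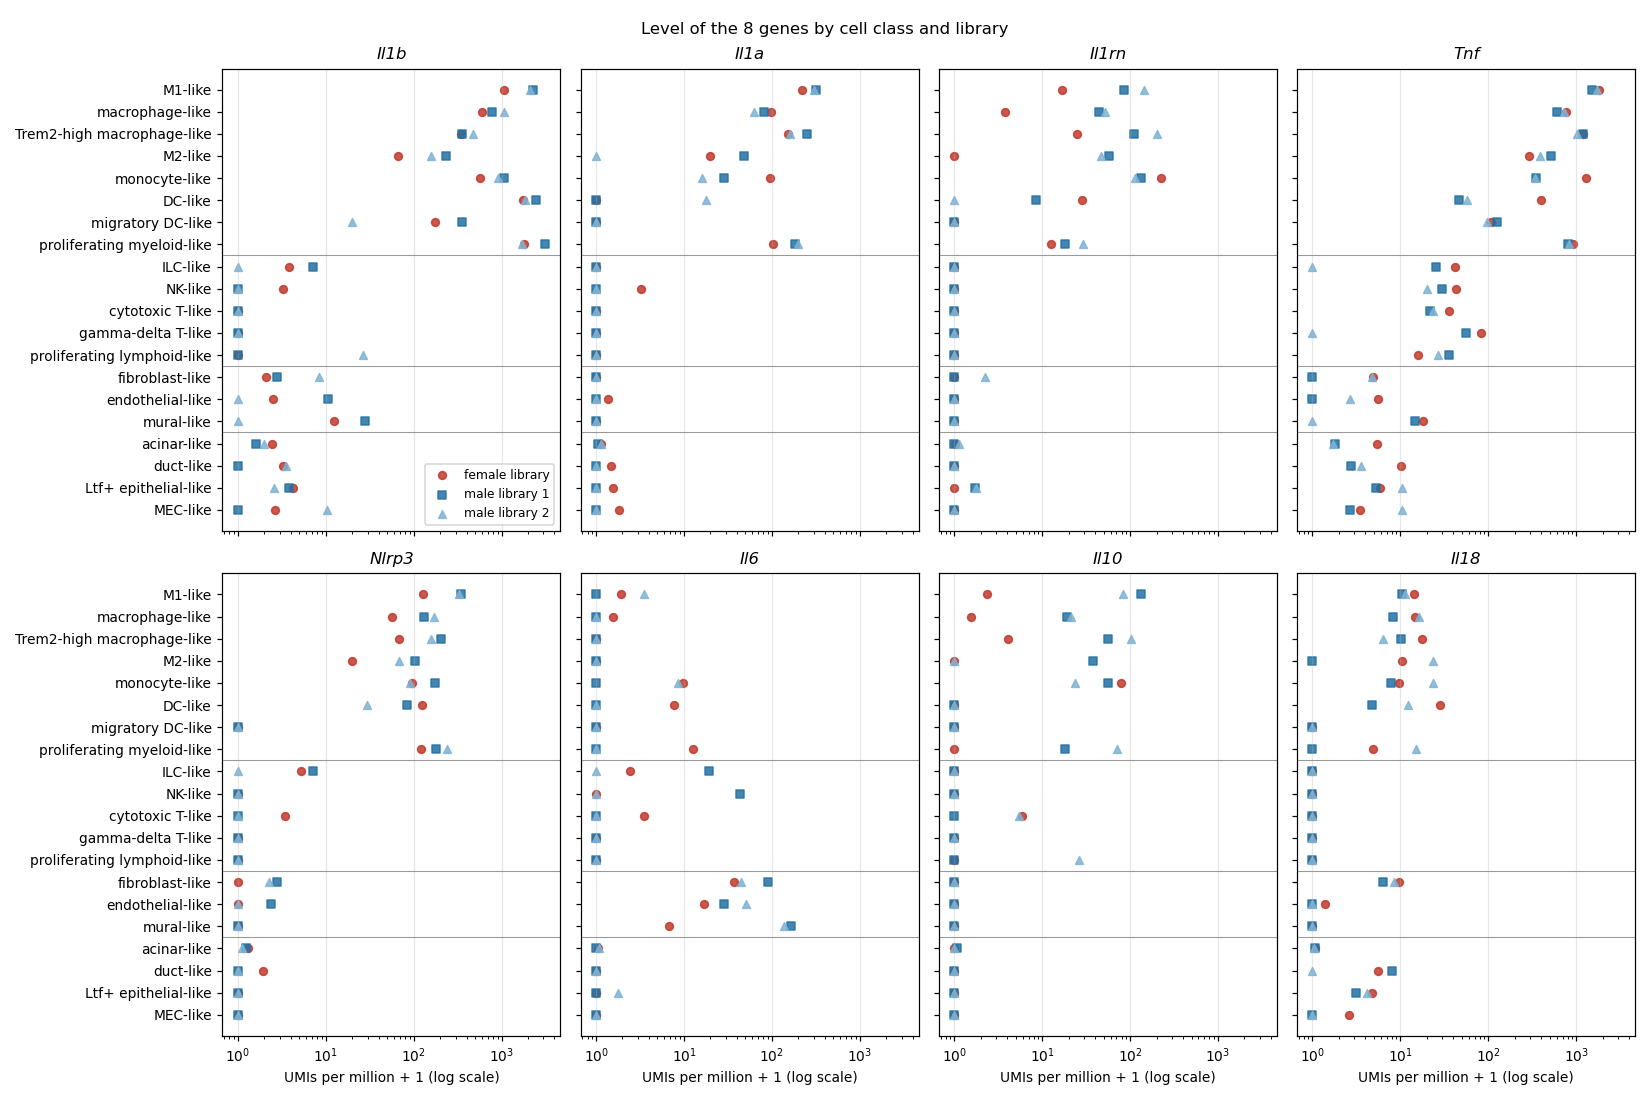
Each of 8 panels shows 1 gene, with 20 named cell classes on one axis and CPM plus 1 on a log axis, and a red circle for the female library, a blue square for male library 1 and a light triangle for male library 2. Il1b, Il1a, Tnf and Nlrp3 are high in the M1-like, macrophage-like and Trem2-high macrophage-like classes and lower in M2-like cells. Il6 peaks in mural, fibroblast and endothelial-like cells, and the dendritic cell-like class combines 2026 CPM of Il1b with 166 CPM of Tnf.

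Il1a, the second ligand of the IL-1 receptor, which is active without inflammasome cutting, was measured at 143, 157 and 118 CPM in myeloid-like cells against 0.202, 0.0556 and 0.126 CPM elsewhere. The groups lay far apart in every library, and the fitted difference was 8.93 (log2, SE 0.34, edgeR adjusted p 2.67e-12). Its order of classes differed from that of Il1b. M1-like cells came first with 222, 321 and 299 CPM, ahead of Trem2-high macrophage-like cells (151, 252 and 162 CPM) by 0.57 ± 0.26 on the log2 scale. Dendritic cell-like cells, second for Il1b by CPM, had 3 Il1a UMIs in all, none in the female library and none in male library 1. Of all Il1a UMIs, 60.0 ± 2.93% were in M1-like cells.

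Il1rn, which encodes the antagonist, had 16.4, 61.9 and 81.0 CPM in myeloid-like cells and at most 0.176 CPM in the remaining cells, a difference of 8.09 (log2, SE 0.40, edgeR adjusted p 6.15e-11). The female level was below both male levels. Monocyte-like cells held the highest mean (225, 131 and 112 CPM), followed by Trem2-high macrophage-like (23.8, 110 and 200 CPM) and M1-like cells (15.9, 83.5 and 142 CPM). Trem2-high macrophage-like cells exceeded M1-like cells by 0.40 ± 0.05 on the log2 scale, with the same direction in all 3 libraries, whereas monocyte-like and Trem2-high cells did not differ beyond their spread. In the female library the monocyte-like cells were also the only one of these classes over 100 CPM. That class had 31 cells there, against 82 and 97 in the male libraries.

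Tnf, which encodes a cytokine released from the membrane by the protease Adam17, was at 1207 CPM in female myeloid-like cells and at 812 and 761 CPM in the male ones, against 6.63, 1.25 and 1.46 CPM in all other cells. Both the myeloid-like and the remaining cells of the female library were above their male counterparts. The fitted difference was 7.43 (log2, SE 0.27, edgeR adjusted p 2.17e-12), or 173-fold. Per 1000000 UMIs outside tear products and mitochondrial genes, the female excess was gone, with 1714 to 1780 CPM over the 3 libraries. A Tnf UMI was found in 79.9%, 53.5% and 50.5% of myeloid-like cells and, after thinning, in 56.8%, 42.5% and 42.3%. The shares in epithelial-like cells were 5.52%, 1.16% and 1.18% before and 2.62%, 0.151% and 0.374% after thinning.

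M1-like cells had the highest Tnf level, with 1822, 1502 and 1706 CPM, and carried 53.7 ± 0.496% of its UMIs. Trem2-high macrophage-like cells had 1193, 1189 and 1030 CPM, proliferating myeloid-like cells 922, 806 and 837 CPM and macrophage-like cells 769, 598 and 727 CPM. The first 3 of these each exceeded the next beyond the spread, by 0.55 ± 0.20, 0.41 ± 0.13 and 0.29 ± 0.12 on the log2 scale. Outside tear products and mitochondrial genes the order of the last pair turned round, with 1300 ± 115 CPM in proliferating and 1360 ± 196 CPM in macrophage-like cells. On that scale the female library was below both male libraries in M1-like cells (2732 against 3190 and 3595 CPM). The same held for Trem2-high (1556 against 2063 and 1651 CPM), proliferating myeloid-like and macrophage-like cells. Female monocyte-like cells stayed above both male libraries (1821 against 752 and 693 CPM). Monocyte-like cells, next in the order, did not differ from macrophage-like cells beyond the spread and had 1306 CPM in the female library and 344 and 337 CPM in the male libraries. Dendritic cell-like cells were similar in this respect, with 394 CPM in the female and 45.5 and 56.7 CPM in the male libraries, and the female class held 36 cells. Tear products were 24.9% of the UMIs of female dendritic cell-like cells and 51.3% and 50.5% in the male libraries. Outside tear products and mitochondrial genes, Tnf in dendritic cell-like cells was at 541 CPM in the female and 95.7 and 118 CPM in the male libraries. The part of tear products in the Tnf difference was not tested.

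**Figure D3:**
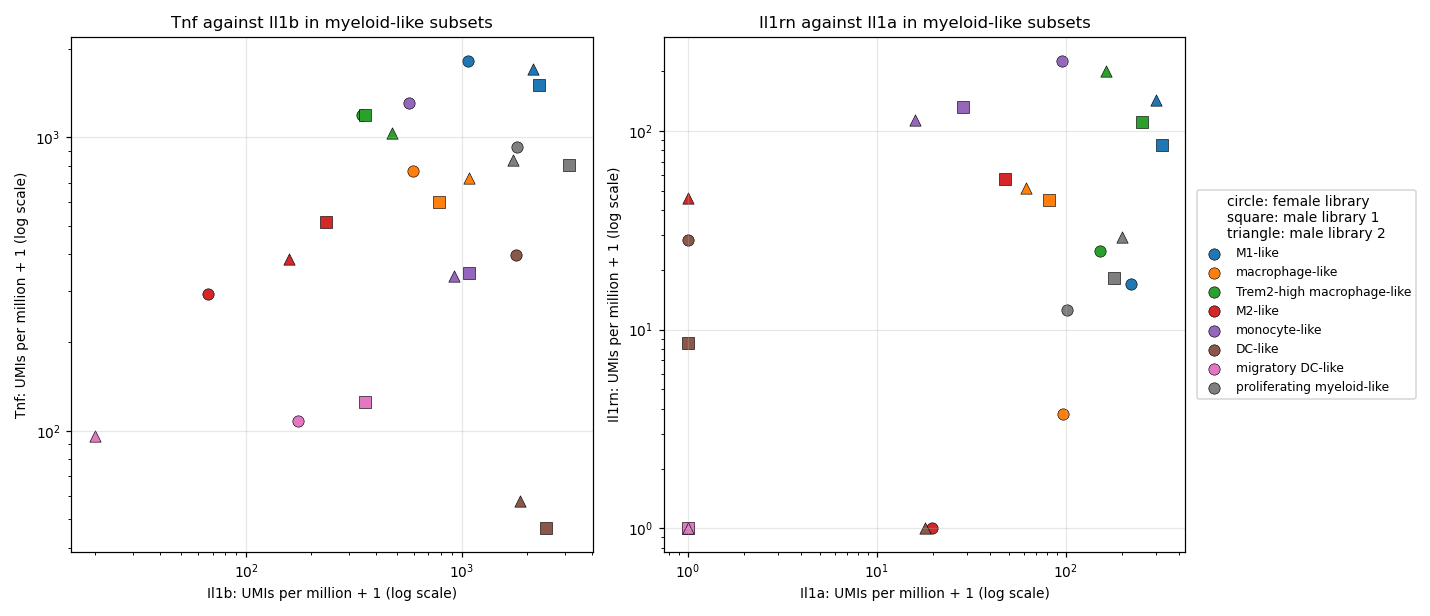
Levels of Tnf against Il1b and of Il1rn against Il1a, in CPM on log axes, with 1 point per myeloid-like subset (color) and library (shape). Dendritic cell-like cells lie at the Il1b level of M1-like cells (1775 to 2454 CPM) but at 45.5 to 394 CPM of Tnf.

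Outside the myeloid-like cells, Tnf had 41.0, 26.6 and 17.8 CPM in lymphoid-like cells, from 88, 12 and 11 UMIs. Uncalled barcodes with more than 500 UMIs had 5.80, 1.38 and 1.91 CPM, and barcodes with 10 to 100 UMIs had 132, 17.3 and 17.4 CPM, from 9, 4 and 3 UMIs, so the lymphoid-like level was above the first background in every library but not above the second in the female library. Outside tear products and mitochondrial genes, lymphoid-like cells had 70.2, 80.3 and 58.1 CPM and the uncalled barcodes over 500 UMIs 43.0, 17.0 and 22.8 CPM. Their reference contains the myeloid-like cells, and the test gave a 4.38-fold lower level than in all other cells (log2 -2.13, SE 0.24, edgeR adjusted p 4.16e-17), though the ranges of the summed levels overlapped. Gamma-delta T-like cells had 81.5 and 54.2 CPM in the female library and male library 1 and no UMI in male library 2. Natural killer-like cells, cytotoxic lymphocytes of the innate system, had 42.3, 28.5 and 19 CPM, and cytotoxic T-like cells 34.6, 20.7 and 22.3 CPM.

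Nlrp3, the inflammasome sensor, had 86.1, 191 and 150 CPM in myeloid-like cells and 0.126 to 0.364 CPM in the others. The difference was 7.83 (log2, SE 0.31, edgeR adjusted p 4.9e-12), with the female myeloid-like level below both male levels. M1-like cells led with 126, 342 and 329 CPM and exceeded proliferating myeloid-like cells (120, 180 and 241 CPM) by 0.46 ± 0.41 on the log2 scale. Trem2-high, monocyte-like and macrophage-like cells had means of 142 ± 68.6, 119 ± 45.9 and 119 ± 56.8 CPM and did not differ from one another beyond the spread. No Nlrp3 UMI was found in migratory dendritic cell-like cells. Stromal cells held 4 Nlrp3 UMIs in all, none in the female library.

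Il18, whose precursor is another substrate of the inflammasome, was spread more widely than the other members and was scarce in every class. Myeloid-like cells had 13, 6.19 and 9.64 CPM against 1.6, 0.417 and 0.277 CPM elsewhere, a 6.81-fold difference (log2 2.77, SE 0.42, edgeR adjusted p 3.15e-05). Of its 103 UMIs there, 30 were in macrophage-like and 38 in M1-like cells. The highest class means, in dendritic cell-like (14.1 ± 11.9 CPM) and monocyte-like cells (12.7 ± 8.53 CPM), rested on 7 and 5 UMIs. The macrophage-like classes lay close together, at 12.1 ± 4.25 CPM in macrophage-like, 10.9 ± 1.97 CPM in M1-like and 10.4 ± 5.67 CPM in Trem2-high cells, so that no neighbours in its order differed beyond the spread. No Il18 UMI was found in lymphoid-like cells, which puts their level at least 1.70-fold below that of the other cells for 3 counts over the group (edgeR adjusted p 0.000957).

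In epithelial-like cells Il18 had 0.816, 0.271 and 0.134 CPM, from 45 UMIs, and was lower than in the remaining cells (log2 -2.09, SE 0.44, edgeR adjusted p 0.00862). Uncalled barcodes held 0.0557 to 0.147 CPM. By class, duct-like cells, which line the passages to the ocular surface, had 4.62 and 6.93 CPM in the female library and male library 1 and none in male library 2. Ltf+ epithelial-like cells, named from lactoferrin, had 3.78, 2.11 and 3.12 CPM, and exceeded the other epithelial-like cells in each library (0.34 ± 0.07 on the log2 scale with 10 CPM added). That direction was shared by 60.7% of all genes in this class, where tear products were 58.1% to 67.8% of UMIs, against 85.7% to 90.5% in acinar-like cells.

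Stromal cells had 5.79, 3.08 and 4.08 CPM of Il18 against 2.29, 0.559 and 0.502 CPM, above the reference in each library without overlap, but the fitted difference did not pass the test (log2 0.38, SE 0.42, edgeR adjusted p 0.503). Scaling by total UMIs in place of TMM gave 2.04 with an adjusted p of 0.00476 and moved the median of all genes from -0.06 to 1.6. The stromal signal came mostly from 1 group of cells. Fibroblast cluster 19, led by Pi16 and Fn1 with 189 cells, held 37 of the 59 fibroblast UMIs of Il18, at 72.2, 48.4 and 32.6 CPM. The remaining fibroblast-like cells had 3.40 ± 0.748 CPM. The log2 difference was 2.14 ± 0.53 (n = 3) without overlap, in a cluster where 10.6% of all genes were higher in 3 of 3 libraries. In male libraries 1 and 2 the value rested on 3 UMIs each.

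Il6, a cytokine that signals through the shared receptor chain Il6st, had most of its UMIs in stromal cells. Stromal cells had 29.0, 68.9 and 51.1 CPM and all other cells 0.340, 0.223 and 0.176 CPM. All 3 stromal values lay above all others, by 5.81 on the log2 scale (SE 0.35, edgeR adjusted p 1.26e-05), a 56.1-fold difference based on 449 UMIs in stromal cells. An Il6 UMI was seen in 5.23%, 8.27% and 6.61% of stromal cells, and in 2.12%, 5.93% and 5.72% after thinning. Epithelial-like cells held 6 Il6 UMIs in all. In myeloid-like cells Il6 was at 2.03, 1.13 and 1.93 CPM from 17 UMIs, against 4.93, 3.89 and 1.99 CPM in the others, and fell by 2.08 on the log2 scale (SE 0.44, edgeR adjusted p 0.000787). This call was lost when total UMIs were used for scaling (log2 -1.11, adjusted p 0.083).

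Within the stroma, mural-like cells, the contractile cells around small vessels, had 5.74 CPM in the female library and 163 and 138 CPM in the male libraries, from 24 UMIs. Fibroblast-like cells had 36.2, 89.5 and 43.7 CPM and endothelial-like cells 15.8, 27.3 and 49.3 CPM, and none of these neighbours differed beyond the spread. Fibroblast-like cells carried 63.8 ± 18.5% of all Il6 UMIs and endothelial-like cells 22.0 ± 11.7%. The endothelial UMIs lay mainly in cluster 16, led by Selp and Ackr1, with 385 cells and 77 of the 91 endothelial UMIs. Selp and Ackr1 are known from the venular endothelium through which leukocytes leave the blood. That cluster had 62.6, 94.9 and 179 CPM, against 6.44 ± 4.16 CPM in the other endothelial-like cells, a log2 difference of 2.81 ± 0.34 without overlap, where 11.6% of all genes were higher in 3 of 3 libraries. An Il6 UMI was found in 13.4%, 12.0% and 19.8% of its cells.

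Fibroblast cluster 1, led by Crabp1 and Cxcl14, had 45.3, 108 and 74.2 CPM of Il6, where fibroblast-like cells outside it had 32.3 ± 20.9 CPM. It was higher within each library (1.06 ± 0.37 on the log2 scale), as were 28.9% of all genes, but the ranges overlapped. Of the 12 dissociation and stress genes listed, 10 were higher in this cluster in 3 of 3 libraries, and 10 of 12 were lower in cluster 19, where 24.6% of all genes were. The part of this in the Il6 and Il18 levels was not tested. In endothelial cluster 16, 3 of the 12 were higher and 3 lower, while 10 of 16 listed signaling genes were higher (11.6% of all genes higher, 22.3% lower).

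**Figure D4:**
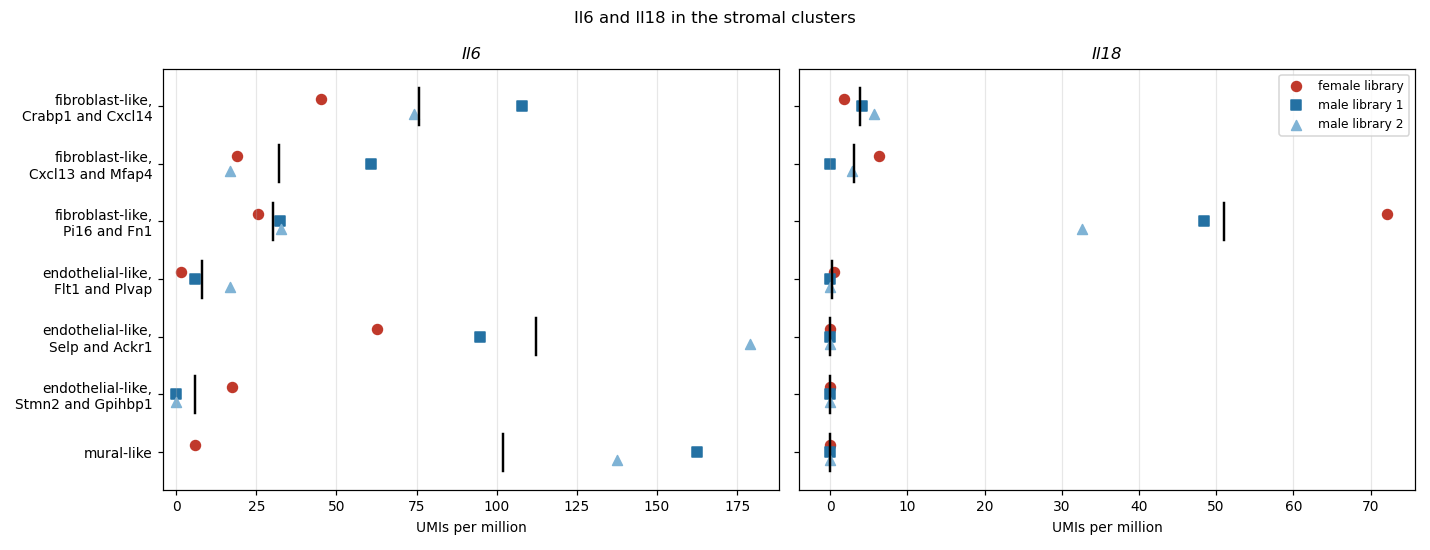
Il6 and Il18 in CPM in 7 clusters of stromal cells, with 1 point per library and a bar for the mean of the 3 libraries. Il6 is highest in endothelial cluster 16 (62.6 to 179 CPM) among the endothelial clusters, and Il18 in fibroblast cluster 19 (32.6 to 72.2 CPM).

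In lymphoid-like cells Il6 rested on 8 UMIs, at 0.932, 13.3 and 0 CPM, and its call (log2 -1.34, SE 0.56, edgeR adjusted p 0.039) turned to 0.053 (adjusted p 0.972) without the female library. Of those 8 UMIs, 3 lay in natural killer-like cells and 4 in the cells named as innate lymphoid-like.

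Il10, the anti-inflammatory cytokine, was the least counted member and differed most between the libraries. Myeloid-like cells had 2.71 CPM in the female library and 56.9 and 41.8 CPM in the male libraries, from 16, 101 and 65 UMIs. In all other cells it was at most 0.111 CPM, so the groups did not overlap, and the difference was 6.96 (log2, SE 0.46, edgeR adjusted p 2.03e-09). A UMI was present in 0.515% of female myeloid-like cells (exact 95% interval 0.223 to 1.0) and in 6.46% (4.99 to 8.20) and 5.49% (4.08 to 7.22) of the male ones. These intervals cover counting error only. After thinning the shares were 0.324%, 4.31% and 4.11%. Myeloid-like cells of the female library, with the low share, had the highest median depth (3574 UMIs per cell, against 1758 and 1424).

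By class, M1-like cells had 1.36, 131 and 81.1 CPM of Il10 (3, 69 and 32 UMIs), Trem2-high macrophage-like cells 3.10, 55.1 and 102 CPM, and monocyte-like cells 77.8, 55 and 22.5 CPM. The female library was below both male libraries in the first 2 of these classes and above both in monocyte-like cells, where it had 9 UMIs. Dendritic cell-like cells had no Il10 UMI. In lymphoid-like cells Il10 was the 1 member not called (1.40, 4.43 and 4.86 CPM from 8 UMIs, log2 0.49, SE 0.66, edgeR adjusted p 0.591), and stromal cells held none, a level at least 6.1-fold below the other cells.

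**Figure D5:**
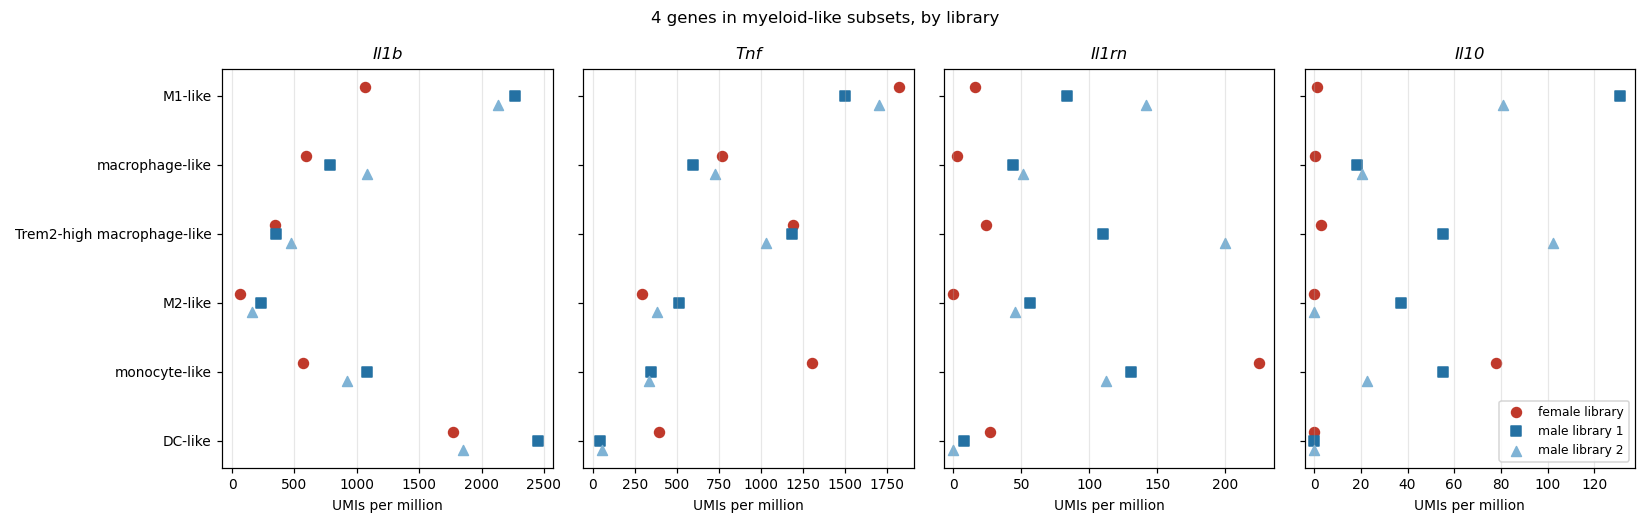
Il1b, Tnf, Il1rn and Il10 in CPM in 6 myeloid-like subsets, by library. In M1-like cells the female library is below both male libraries for Il1b (1065 against 2267 and 2132), Il1rn (15.9 against 83.5 and 142) and Il10 (1.36 against 131 and 81.1). For Tnf it is above both (1822 against 1502 and 1706). Outside tear products and mitochondrial genes the female library is below both for Tnf as well (2732 against 3190 and 3595).

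Set against the other myeloid-like cells, M1-like cells were higher in 3 of 3 libraries for 5 of the 8 genes and lower for none, where 7.72% of 11012 genes were higher and 33% lower. On the log2 scale with 10 CPM added, Il1a stood 1.71 ± 0.56 higher, Tnf 1.51 ± 0.41, Nlrp3 1.35 ± 0.43, Il1b 1.04 ± 0.33 and Il18 0.15 ± 0.21 (n = 3 libraries). Il1a and Tnf did not overlap between the groups, and Il1b did. Set against macrophage-like, Trem2-high and M2-like cells together, 5 of 7 genes were again higher in each library (7.92% of all genes). These were Il1b by 1.58 ± 0.49, Il1a by 1.20 ± 0.29, Nlrp3 by 1.06 ± 0.07, Tnf by 0.99 ± 0.07 and Il1rn by 0.30 ± 0.09. Subsets are clusters of the same cells, so these differences were not tested. In the paper that reported these libraries, the cluster proposed as M1 was described by Cd14 and Ccl4 together with Il1b, Tnf and Nlrp3. The markers that gave the M1-like name may thus favor these members. The share of all genes is therefore no independent reference for them. The summed level of immediate-early genes in M1-like cells was 6931, 3203 and 3145 CPM, against 5223, 3083 and 3307 CPM in macrophage-like and 5853, 3742 and 3441 CPM in Trem2-high cells. Of the 12 stress genes, 4 were higher and 4 lower in M1-like cells than in other myeloid-like cells in 3 of 3 libraries.

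The class named macrophage-like, without Trem2-high and M2-like cells, was lower than other myeloid-like cells in each library for 6 of the 8 genes (25.2% of all genes). Il1a was at -0.88 ± 0.15, Il1b at -0.56 ± 0.50 and Tnf at -0.48 ± 0.39 on the log2 scale. Il6, counted among the 6, had 1 UMI there against 16. Trem2-high cells, which carry a lipid-sensing receptor, had less Il1b (-1.63 ± 0.52, no overlap) but more Il1a (0.45 ± 0.35) and Il1rn (0.93 ± 0.53), where 10.8% of all genes were lower and 30.6% higher. M2-like cells were lower in each library for 7 of the 8 (23.4%), among them Il1b by -2.98 ± 0.37 and Tnf by -1.24 ± 0.71. With 138 M2-like cells the other 5 rested on 0 to 16 UMIs, and Il6, with 17 UMIs in all myeloid-like cells, was too scarce there for its 0 to carry information. Monocyte-like cells were higher for Il1rn (1.66 ± 1.54, no overlap, 14.3% of genes higher) and lower for Il1b (-0.43 ± 0.10) and Il1a (-1.75 ± 1.04), where 20.6% of genes were lower.

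Dendritic cell-like cells were higher for Il1b (0.96 ± 0.23, no overlap, 14.7% of genes higher) and lower for Tnf (-3.14 ± 1.33) and Il1a (-3.54 ± 1.02), where 25.2% of genes were lower. Migratory dendritic cell-like cells, which travel to lymph nodes, were lower in each library for Il1b (183 ± 169 CPM, log2 -3.19 ± 1.87) and Tnf (109 ± 15.1 CPM, -2.99 ± 0.38), as were 43.1% of all genes. These rested on 34 and 20 UMIs in 92 cells. None of the other 6 genes had a UMI in them, and Il6, with 17 UMIs in the other myeloid-like cells, was too scarce for its 0 to carry information.

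Inside the M1-like class, cluster 5, led by Gdf15, Slc7a11 and Cxcl1 with 245 cells, differed from the remaining M1-like cells. It had 48.5, 162 and 369 CPM of Il1rn against 40.6 ± 29.3 CPM (1.86 ± 0.43 on the log2 scale) and 2185 ± 197 CPM of Tnf against 1503 ± 205 CPM (0.54 ± 0.12, no overlap). Nlrp3 (0.78 ± 0.19), Il1a (0.39 ± 0.15) and Il1b (0.29 ± 0.28) were higher in each library too, in a cluster where 26.4% of all genes were. Il10 was among the leading genes of this cluster against the other myeloid-like clusters. It was not among the 5 members higher in each library than in the remaining M1-like cells. Cluster 0, with 679 cells, was lower in each library for 6 of the 7 members counted (28.7% of all genes).

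Detection of the genes in the same cells was compared at 1000 UMIs per cell in 1111 M1-like cells. Of these, 662 held an Il1b UMI, 812 a Tnf UMI and 491 both. Tnf was found in 76.5%, 69.9% and 74.8% of Il1b-positive cells and in 72.9%, 70.1% and 67.1% of Il1b-negative cells of the 3 libraries. Over all macrophage classes, M1-like cells included, the shares were 68.5%, 67.1% and 68.4% against 56.2%, 49.2% and 47.2%, and in myeloid-like cells outside the M1-like class 52.2%, 31.6% and 36.0% against 42.7%, 29.9% and 25.6%, higher with Il1b in each library. Nlrp3 was found in 13.1%, 25.9% and 31.3% of Il1b-positive and 6.51%, 21.8% and 20.0% of Il1b-negative cells, with the same direction in each library. Il10 was present in 12.4% and 8.59% of Il1b-positive and 4.6% and 4.29% of Il1b-negative male M1-like cells, and in a single female cell. Before thinning, 601 of 808 Nlrp3-positive and 88 of 127 Il10-positive kept cells of any class held exactly 1 UMI. For Il1b these were 589 of 2019 and for Tnf 861 of 2550. A missing UMI does not show that a cell lacks the transcript.

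The receptors of these ligands had another distribution, given here for gene lists that leave the 8 out. Of 14 receptors and decoys tested in myeloid-like cells, 6 were higher and 5 lower, where 20.4% of all genes were higher and 29.1% lower (median log2 0.37, against -0.25 over all genes). Il10ra (65.5 ± 52.1 CPM, log2 5.26) and Il10rb (49.8 ± 31.6 CPM, log2 2.05), the chains of the interleukin-10 receptor, and the TNF receptor gene Tnfrsf1b (37.1 ± 6.05 CPM, log2 3.97) were the higher ones with most UMIs. In stromal cells 5 of 12 were higher and 2 lower, beside 21.7% and 22% of all genes (median log2 0.57, against -0.06). They included Il6st, the signaling chain for interleukin-6 (110 ± 35.1 CPM against 7.75 ± 5.77 CPM, log2 2.32, SE 0.21, edgeR adjusted p 8.61e-05), Tnfrsf1a (83.9 ± 25.6 CPM, log2 1.71) and the IL-1 receptor gene Il1r1 (43.7 ± 15.0 CPM, log2 2.59, SE 0.29, edgeR adjusted p 0.000252). In lymphoid-like cells, where 13.5% of all genes were higher and 28.6% lower, 6 of 14 were higher and 4 lower, with Il1rl1, the interleukin-33 receptor (52.7 ± 53.0 CPM, log2 5.80), Il18r1, the interleukin-18 receptor (33.6 ± 16.6 CPM, log2 7.44), and Il10ra (25.2 ± 15.6 CPM, log2 1.49) among the former. In epithelial-like cells none of 14 was higher and 12 were lower, beside 23.4% and 28.4% of all genes, Il6st, Tnfrsf1a and Il10rb included.

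Of 13 inflammasome and processing genes, 10 were higher and 1 lower in myeloid-like cells, beside 20.4% and 29.1% of all genes (median log2 2.83). Adam17, the protease that releases TNF (56.4 ± 25.6 CPM, log2 2.65), and Aim2, a sensor of DNA (21.6 ± 11.3 CPM, log2 4.61), were higher, and Txnip was lower (log2 -1.27). The adaptor Pycard is not among them: it was at 74.7 ± 9.29 CPM against 32.7 ± 10.8 CPM and was not called (log2 0.08, adjusted p 0.762). It was chosen for mention after its values were seen. Lymphoid-like cells had 4 higher and 3 lower of 10 (13.5% and 28.6% of all genes), stromal cells 1 higher and 5 lower of 10 (21.7% and 22%), and epithelial-like cells 1 higher and 8 lower of 13 (23.4% and 28.4%). The epithelial gene called higher was Pycard (log2 0.90, adjusted p 0.00274), although its CPM was 31.3 ± 9.89 against 55.2 ± 9.04: the TMM-scaled difference and the CPM go in opposite directions for this gene.

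Of 16 signaling and feedback genes, 10 were higher and 1 lower in myeloid-like cells, again beside 20.4% and 29.1% of all genes (median log2 1.34). Those with most UMIs were Nfkbia, the NF-kB inhibitor (log2 2.82), Zfp36, a factor that shortens the life of cytokine transcripts (log2 1.29), and Nfkbiz (493 ± 319 CPM, log2 3.26). Stromal cells had 5 higher and 2 lower of 16 (21.7% and 22% of all genes), with Zfp36, Socs3 and Stat3 higher. Lymphoid-like cells had 4 and 3 (13.5% and 28.6%), and epithelial-like cells 1 and 12 (23.4% and 28.4%). Of the other ligands, Osm was higher in myeloid-like cells (43.2 ± 6.25 CPM against 0.196 ± 0.181 CPM, log2 6.74), Ltb in lymphoid-like cells (170 ± 91.4 CPM, log2 7.01) and Il33 in stromal cells (87.0 ± 81.6 CPM, log2 3.66). Of the 12 dissociation and stress genes, 5 were higher and 5 lower in myeloid-like cells, with Atf3 (log2 2.10), Hspa8 (1.47) and Hspa1a (1.69) higher. In stromal cells 4 were higher and 1 lower, in lymphoid-like cells 3 and 6, and in epithelial-like cells 0 and 5, to be read against the same shares of all genes.

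The genes with a pattern most like each member were found by Pearson's r of mean levels over the 20 named classes among 12032 genes, which share libraries and classes and are not independent. For Il1b these were Tnip3 (0.967) and Tbc1d9 (0.964), for Il1a Mmp12 (0.981) and Ifnb1 (0.967), and for Il1rn Igsf6 (0.974). Tnf was most like Ctss (0.977) and Ccrl2 (0.975), and Nlrp3 most like Cd300c2 (0.981) and Tlr2 (0.980). For Il6 the closest were Runx1t1 (0.942) and Adamts4 (0.941), for Il10 Gdf3 (0.940), and for Il18 Cyp27a1 (0.931). Among the members, r was 0.904 for Il1b with Tnf, 0.927 for Il1b with Nlrp3 and 0.938 for Tnf with Nlrp3, while Il6 ranged from -0.354 to -0.173 with the others.

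Outside their main compartments the remaining values were low. In stromal cells Il1b had 1.45, 5.65 and 4.08 CPM (log2 -6.34, edgeR adjusted p 2.45e-05) and Tnf 4.34, 0.514 and 2.72 CPM (log2 -6.59, edgeR adjusted p 7.33e-06). Uncalled barcodes had 2.48, 3.05 and 3.12 CPM of Il1b and 5.80, 1.38 and 1.91 CPM of Tnf. Il1a and Il1rn had 1 UMI each among the 4806 stromal cells. In lymphoid-like cells Il1b had 3.73, 2.21 and 3.24 CPM (log2 -5.32, edgeR adjusted p 5.17e-55), Nlrp3 had 5 UMIs in all and Il1a 1, and Il1rn had none, a level at least 2.79-fold below that of the other cells. In epithelial-like cells Il1b was at 1.66, 0.694 and 1.10 CPM, against 266, 592 and 449 CPM in the remaining cells (log2 -6.76, edgeR adjusted p 0.000145). Il10 had 2 UMIs among 8238 epithelial-like cells.

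Whether a compartment's difference itself changed between the female and the male libraries was tested with a class-by-sex term, which leaves 1 residual degree of freedom. It was called for 1 of 8 genes in myeloid-like cells (13.2% of all genes), 0 of 8 in lymphoid-like cells (1.52%), 2 of 7 in stromal cells (16.6%) and 3 of 8 in epithelial-like cells (15%). In lymphoid-like cells 1060 of 11963 genes had an unadjusted edgeR p under 0.05, among them Il6 (0.0246). No other tool was run for this term. The Tnf difference of myeloid-like cells was smaller in the female library by -0.80 (log2, edgeR adjusted p 0.0116), with 1207 CPM against 6.63 CPM there and 812 and 761 against 1.25 and 1.46 CPM in the male libraries. For Il10 the term in myeloid-like cells was -2.85 on the log2 scale and was not called. The lower female level of Il10 there, with males at 18.2 times the female value, was not itself tested.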

How the data were processed

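Droplet single-cell RNA-seq (10x Chromium 3′) was measured in 1 female and 2 male LG libraries. As deposited, each matrix holds UMI counts by gene and barcode, and the authors used Cell Ranger (version 6.1.2 in the submitters' processing notes) on the mm10 genome. The annotation release is not given in the sources used here, and 32235 of 32285 gene IDs matched GENCODE release M21. Called barcodes passed at over 500 UMIs, over 200 genes and under 15% mitochondrial UMIs, and predicted doublets were removed with Scrublet (scanpy 1.11.5) at 0.8% per 1000 cells, 287 to 646 cells a library. Cells were normalized with SCTransform 0.4.2, integrated by canonical correlation and clustered in Seurat 5.3.0 (R 4.3.3, resolution 1) without the members and their pathway lists. Clusters were named by marker score.

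The members and lists were chosen with earlier results of these data known. Named were all 8 members, up to 3 called genes with most UMIs per list, and the genes most like each member. UMIs summed per library were compared in edgeR 4.0.16 (TMM, quasi-likelihood, Benjamini-Hochberg over all tested genes) with the library as block, since both sums come from 1 suspension, and deviations of the paired sums correlated at 0.144 to 0.587. DESeq2 1.42.0, other scalings, filters and free-RNA subtraction were alternatives. Subsets are given as log2 ratios of CPM plus 10 CPM. Shares of cells were also given after thinning to 1000 UMIs, which left out 12, 32 and 96 myeloid-like cells. A class with 0 UMIs was bounded at 3 counts. Captured 3′ ends do not separate isoforms, levels were not compared between genes, and at these depths (37754290 to 55375501 UMIs a library) counts under 10 UMIs have wide counting error. The test was checked on simulated data. RefSeq lists no promoter here for Il10.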

Additional observations from a re-analysis of the deposited data

Results flagged for a closer look

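Compartment differences that changed between the female library and the male libraries stood out in 6 cases. For Tnf the myeloid-like difference was smaller in the female library by -0.80 (log2, edgeR adjusted p 0.0116). In stromal cells, Il1b gave -2.17 (adjusted p 0.00104; 1.45 CPM in the female and 5.65 and 4.08 CPM in the male libraries), and Nlrp3 -6.15 (adjusted p 0.0109), the latter from 0, 3 and 1 UMIs. In epithelial-like cells, the difference was 1.77 for Il1b (edgeR adjusted p 0.000212), 1.75 for Tnf (adjusted p 2.8e-06) and 2.26 for Nlrp3 (adjusted p 0.0097). Epithelial-like Tnf was at 4.92 CPM in the female and 0.965 and 1.12 CPM in the male libraries. Uncalled barcodes ranged from 1.38 to 5.80 CPM for Tnf and from 2.48 to 3.12 CPM for Il1b, and the part of free RNA in these values was not tested. Sex, day and core cannot be told apart.

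The 4714 called barcodes that the filters removed held 13891802 UMIs and also carried the 8 genes, with 668 UMIs of Il1b, 884 of Tnf, 100 of Il1a, 86 of Nlrp3, 22 of Il1rn, 17 of Il10 and 25 of Il18. Il6 had 104 UMIs there, 17.8% of its total, against 6.04% to 10.7% for the other 7 genes. Its level in removed barcodes was 3.50 to 10.5 CPM, against 1.98 to 4.62 CPM in kept cells.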

How the results depend on the processing

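The counts of members called were 8, 7, 6 and 8 in myeloid-like, lymphoid-like, stromal and epithelial-like cells. They became 0, 0, 0 and 0 when free RNA of barcodes with 10 to 100 UMIs was subtracted, with a smallest adjusted p of 0.112, 0.104, 0.149 and 0.104 among the members and 0% of all genes called. The cause was not tested. Under every other alternative they were 7 to 8, 5 to 7, 6 to 7 and 7 to 8. Leaving out 1 library gave 8 to 8, 5 to 7, 6 to 7 and 8 to 8, and 5 to 7 for the 5 members higher in M1-like cells, which other alternatives put at 4 to 5.

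Without the replicate block the counts were 8, 6, 6 and 8, and Il10 in lymphoid-like cells changed sign to -0.48 (edgeR adjusted p 0.828). Il6 in lymphoid-like cells ranged from -3.24 to 0.053 when 1 library was left out, changing sign (adjusted p 0.972) without female replicate 1, and was not called by DESeq2 (adjusted p 0.284). Of 463 alternative values for the 31 member fold changes, 422 kept direction and side of the threshold, 38 lost the call, 29 of them under the 10 to 100 UMI subtraction, and 1 gained it. No paired analysis was possible between the sexes because they share only replicate number 1, which the labels do not tie together.

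Total UMIs in place of TMM raised the share of called genes that were higher from 41.2% to 77.4% in myeloid-like, 32% to 70.6% in lymphoid-like and 49.7% to 92.2% in stromal cells, and lowered it from 45.2% to 4.30% in epithelial-like cells, with medians of all genes of 0.81, 0.56, 1.6 and -1.78 in place of -0.25, -0.30, -0.06 and -0.04.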
